A study of Mus musculus with 16 samples.

Results

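Mutant astrocytes were compared with wild-type astrocytes in 8 bulk RNA sequencing libraries, 4 per genotype, chosen by their labels as the astrocyte libraries among the 16 of the series, and all genes were considered. The cells were isolated from P14 (postnatal day 14) mouse cortex. Mutants carried *Aldh1l1*-Cre/ERT2, a bacterial artificial chromosome transgene in which the astroglial *Aldh1l1* promoter drives a tamoxifen-inducible Cre recombinase, together with *Hmgb1* flx/flx. Wild types were *Hmgb1* flx/flx without Cre, so that their *Hmgb1* was floxed as well, and pups of both genotypes received tamoxifen in the first postnatal days. Cells were separated with magnetic beads, first by removal of myelin and of CD45-positive cells, then by CD31 for endothelial cells (ECs), and last by ACSA-2, an astrocyte surface antigen, for astrocytes. Each animal gave 1 astrocyte library, and the same 8 animals gave 8 EC libraries, which are used here where an effect is set against that in another cell type.

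Astrocytes are the branched glial cells that enwrap synapses and, through their endfeet, the cortical microvessels. They clear transmitters, supply sterols and other lipids, and sense neuronal activity mostly through G protein-coupled receptors. HMGB1, the product of *Hmgb1*, is an abundant nuclear protein that bends DNA and can leave the cell to act as a signal on neighbouring cells. The Cre used here is fused to a mutated ligand-binding domain of oestrogen receptor alpha, which keeps it out of the nucleus until tamoxifen binds.

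Mutant astrocyte libraries held 19261715 to 23132312 counted reads and wild-type ones 17261546 to 19577335. Levels are given as CPM, reads of a gene scaled to the counted reads of its library, for mutants 2, 13, 18 and 21 and for wild types 5, 9, 19 and 22, in that order. Y-linked transcripts were present at 1 CPM or more in mutants 2 and 13 and wild types 5 and 9, and *Xist* was at 818 to 1209 CPM in the other 4 animals. These 2 sets of 4 animals were parted by the first principal component (50.1% of the variance), and they also coincide with low and high animal numbers, so that sex and whatever follows the animal numbers cannot be told apart. The astrocyte markers summed to 36800 to 46500 CPM in mutants and 35400 to 44700 CPM in wild types, led by the glutamate transporter genes *Slc1a2* (15500 ± 2360 CPM in mutants, against 15800 ± 2980 CPM in wild types; SD, n = 4 each, as for all errors of levels below) and *Slc1a3* (11800 ± 911 CPM in mutants, against 10400 ± 442 CPM in wild types). EC markers summed to 104 to 163 CPM in mutant and 126 to 172 CPM in wild-type astrocyte libraries, against at least 15180 CPM in EC libraries. Neuronal markers reached at most 109 CPM in a mutant and 92.2 CPM in a wild type. Libraries of some animals stood apart in other markers. Wild type 5 held 1411 CPM of choroid plexus markers, against 8.63 to 72.1 CPM in the other wild types, and mutant 21 held 113.9 CPM, against 13.6 to 20.2 CPM in the other mutants. Wild type 9 held 3034 CPM of oligodendrocyte markers, against 359 to 701 CPM in the other wild types and 631 to 1170 CPM in mutants.

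The comparison was fitted on genotype alone and, as a second fit, with the set as a term, in edgeR with the quasi-likelihood test and Benjamini-Hochberg adjustment over 15850 genes. On genotype alone 1 gene passed an adjusted p of 0.05 (0.00631% of those tested), and 1180 had an unadjusted p under 0.05 (7.44%). With the set as a term 161 genes passed (1.02%), of which 56 were higher in mutants (0.353%) and 105 lower (0.662%). In this second fit 2766 of the 15850 genes had an unadjusted p under 0.05, which is the background for such counts in the lists below. Below, "rose" and "fell" are used of genes that passed with the set as a term, and adjusted p-values and log2 fold changes (mutant over wild type) are from that fit unless the other is named. DESeq2 called 97 of 15154 genes on genotype alone (0.640%, with 34 or 0.224% higher and 63 or 0.416% lower), and 80 of the 161 were among them. DESeq2 called 590 of 13838 genes with the set as a term (4.26%, with 1.81% higher and 2.45% lower). Limma-voom called 2 genes on genotype alone (0.0126%, with 0.00631% in each direction) and 203 with the set as a term (1.28%, with 0.404% higher and 0.877% lower). Fits without 1 animal called between 3 genes in all (without mutant 21) and 81 (without mutant 2). They called 14 without wild type 19, 20 without mutant 18, 21 without mutant 13, 23 without wild type 5, 34 without wild type 9 and 51 without wild type 22. Of the 161 genes, 3 were still called without mutant 21 and 58 without mutant 2. Without wild type 5, wild type 9 and wild type 22, 21, 32 and 39 of the 161 were still called. All 161 kept their direction in each of these fits, which share most of the libraries on which the genes were called. The kept direction is therefore a description and no separate evidence. Among genes given below as not passing in edgeR, those called by DESeq2 with the set as a term included *Gfap*, *Pdyn*, *Nfix*, *Eda2r*, *Hmgb3*, *Gper1*, *Greb1*, *Nr3c2*, *Ptch1*, *Gli2*, *Fgf2* and *Arpc5*. *Gja1*, *Dag1*, *Arhgef28* and *Lurap1l* were also called by it. Those called by limma-voom with the set included *Gfap*, *Nfix*, *Eda2r* and *Dag1*. The genotype effect was not found to differ between the sets for any gene: 0 of 15850 passed a test of the interaction, and 695 had an unadjusted p under 0.05 (4.38%).

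**Figure D1:**
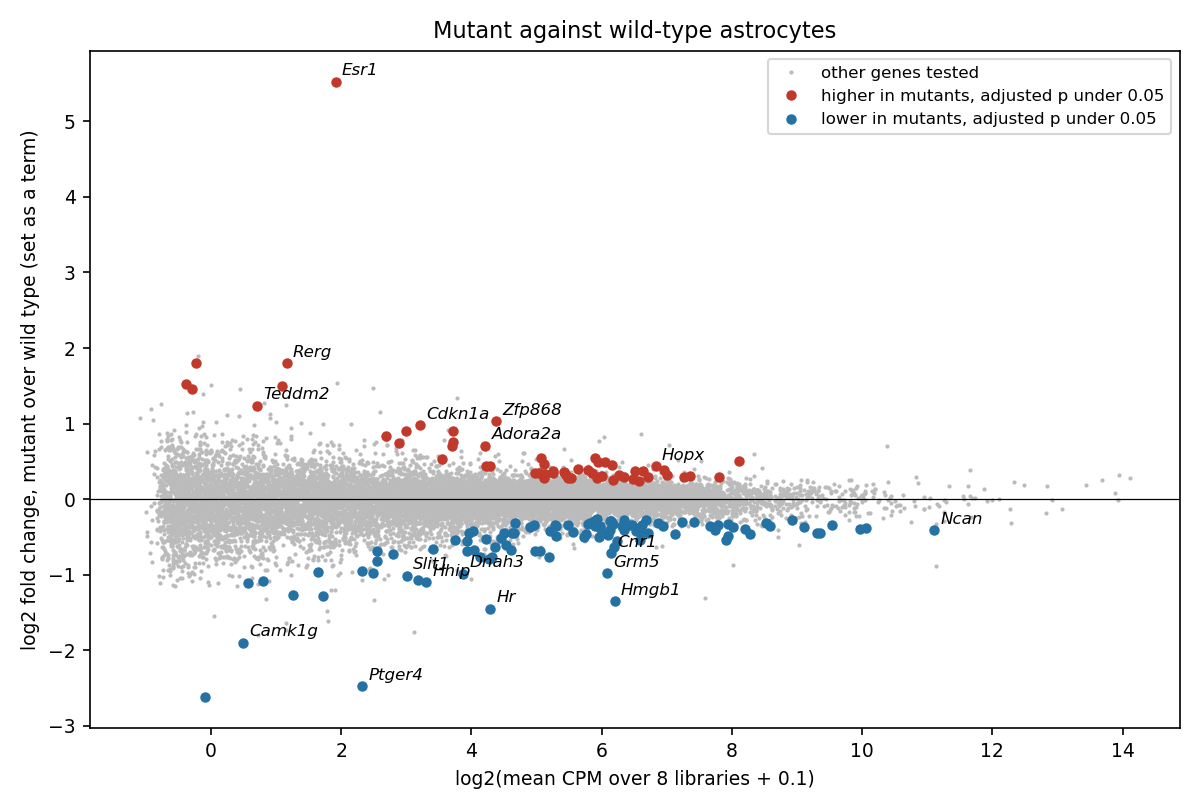
Log2 fold change of mutant over wild-type astrocytes from the fit with the set as a term (vertical axis) against the mean level over the 8 libraries, as log2 of CPM plus 0.1 (horizontal axis). Each point is 1 of 15850 genes; red marks the 56 genes that rose, blue the 105 that fell and grey the others, and *Esr1* at 5.53 stands far above every other gene.

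The targeted gene checked the labels. *Hmgb1* (ENSMUSG00000066551.13; GRCm39 chr5:148983445-149121815, minus strand) stood at 32.4, 39.0, 42.0 and 50.6 CPM in mutant astrocytes, against 88.1, 89.2, 127 and 118 CPM in wild-type astrocytes. All mutants lay below all wild types, and the mutant mean was 38.8% of the wild-type mean. The log2 fold change was -1.35 (SE 0.07), with an edgeR adjusted p of 7e-05. On genotype alone it was -1.36 with an adjusted p of 0.0605, and an exact two-sided permutation test of the 8 values gave p = 0.0286, the smallest that 4 against 4 can give. In a bulk library, fewer cells with the transcript and less transcript per cell cannot be told apart, so the remaining reads do not say how many astrocytes had recombined. Of 11 tested genes within 500 kb of *Hmgb1* none passed (log2 fold changes of -0.53 to 0.39). *Hmgb1* was the 1 called of 8 tested genes of its family and receptors (12.5%, against 1.02% of all genes). *Hmgb3*, on the X chromosome, stood at 38.9 ± 9.5 CPM in mutants, against 30.2 ± 10.1 CPM in wild types (0.40, SE 0.10, adjusted p = 0.0934). *Aldh1l1*, whose promoter drives Cre, stood at 586 ± 80.0 CPM in mutants, against 576 ± 119 CPM in wild types (0.05, SE 0.08), and the sign of its difference turned without mutant 2 (-0.01). None of the 9 tested genes within 500 kb of it passed.

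*Esr1*, which encodes oestrogen receptor alpha, was the gene that passed on genotype alone. Its levels were 6.96, 5.91, 10.2 and 5.66 CPM in mutants, against 0.266, 0.116, 0.113 and 0.102 CPM in wild types, a log2 fold change of 5.53 (SE 0.35) in both fits. The mutant libraries held 134, 127, 203 and 131 *Esr1* reads and the wild-type ones 5, 2, 2 and 2. The ratio of summed reads, scaled to library size, was 47.3, with exact 95% bounds of 26.3 and 95.3 for counting error alone. In ECs of the same animals the reads were 26, 39, 31 and 32 in mutants and 33, 45, 30 and 51 in wild types. The difference between the effects in astrocytes and in ECs, tested over all 16 libraries, was 5.85 on the log2 scale for *Esr1* (adjusted p = 1e-05) and -1.32 for *Hmgb1* (adjusted p = 0.01), and no other of 17493 genes passed that test (2 called, 0.0114%, with 0.00572% in each direction). Only mutants carried CreERT2, whose receptor part comes from oestrogen receptor alpha, and gene counts do not tell reads of the transgene from reads of the endogenous gene. Of the other 8 steroid receptor genes tested, all had negative log2 fold changes and none passed. *Gper1*, a membrane oestrogen receptor, stood at 12.1 ± 3.7 CPM in mutants, against 17.5 ± 1.8 CPM in wild types (-0.56, SE 0.13, adjusted p = 0.084), and *Nr3c2*, the mineralocorticoid receptor, at 34.6 ± 4.1 CPM in mutants, against 43.8 ± 7.9 CPM in wild types (-0.32, SE 0.08). Of 15 oestrogen-responsive genes tested, 1 fell, *Ccnd1* (cyclin D1), and 0 rose, so that 6.67% of the list was called, against 1.02% of all genes. *Greb1*, a classic oestrogen target in breast cells, stood at 10.5 ± 2.0 CPM in mutants, against 6.80 ± 1.1 CPM in wild types (0.65, SE 0.16, adjusted p = 0.0954). The list's median was -0.10, against 0.01 over all genes tested.

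**Figure D2:**
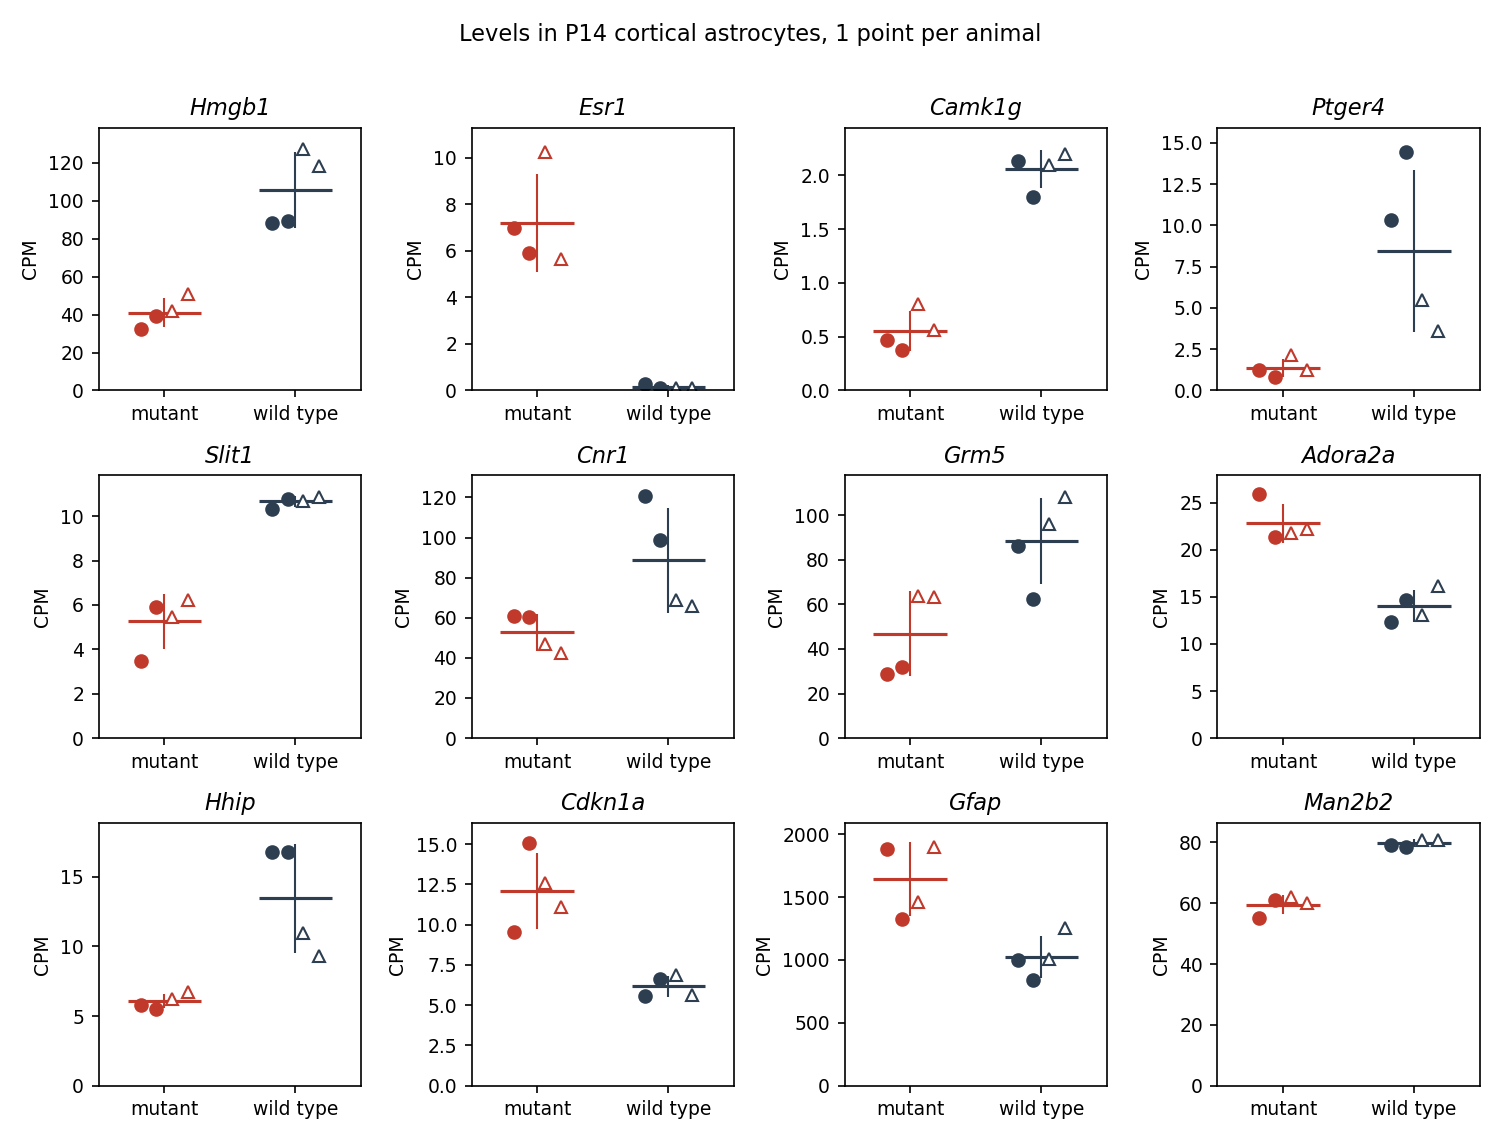
CPM (vertical axes, from 0) of 12 genes in the 4 mutant (red, left) and 4 wild-type (dark, right) astrocyte libraries, 1 point per animal, filled circles for animals with Y-linked transcripts and open triangles for those without; bars are means and SDs. The groups do not overlap for any of these genes except *Grm5*, where the sets lie apart and mutants are lower within each.

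Of 33 tested genes of neuromodulator and metabotropic receptors, by which astrocytes sense neuronal activity, 2 fell and 1 rose. *Cnr1*, the cannabinoid receptor CB1, fell to 60.6, 60.4, 47.0 and 42.5 CPM in mutants, against 121, 99.0, 68.8 and 66.0 CPM in wild types (-0.72, SE 0.08, adjusted p = 0.00674). Every mutant lay below every wild type. *Grm5*, the metabotropic glutamate receptor mGluR5 of young astrocytes, stood at 28.6, 32.0, 63.6 and 63.2 CPM in mutants, against 86.2, 62.6, 96.2 and 108.3 CPM in wild types (-0.97, SE 0.13, adjusted p = 0.0148). Its groups overlapped when pooled, by mutants 18 and 21 and wild type 9, and did not overlap within either set. *Adora2a*, an adenosine receptor, rose to 25.9, 21.4, 21.8 and 22.2 CPM in mutants, against 12.3, 14.7, 13.1 and 16.1 CPM in wild types (0.71, SE 0.11, adjusted p = 0.0309), and DESeq2 called it on genotype alone. These 3 made up 9.09% of the list, against 1.02% of all genes, and the median of the list was -0.03. Genes outside that list were chosen after their values were seen. *Adcy8*, a calcium-stimulated adenylyl cyclase, fell to 23.9 ± 3.4 CPM in mutants, against 39.2 ± 9.9 CPM in wild types (-0.69, SE 0.11). *Gpr37*, an orphan receptor of glia, fell to 56.1 ± 7.0 CPM in mutants, against 89.2 ± 24 CPM in wild types (-0.63, SE 0.11). The secretin receptor gene *Sctr* fell as well (-0.53), and *Gria3*, an AMPA-type glutamate receptor subunit on the X chromosome, rose to 16.9 ± 5.0 CPM in mutants, against 9.07 ± 1.9 CPM in wild types (0.90, SE 0.16). Channel genes moved in both directions. The A-type potassium channel gene *Kcnd2* fell (43.5 ± 5.8 CPM in mutants, against 62.1 ± 2.5 CPM in wild types), while *Dpp6*, an auxiliary subunit of such channels, rose (56.2 ± 6.7 CPM in mutants, against 42.9 ± 6.8 CPM in wild types), and so did *Gabra4*, a GABA-A receptor subunit (102 ± 6.2 CPM in mutants, against 79.6 ± 3.3 CPM in wild types).

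*Ptger4* and *Camk1g* had the most negative log2 fold changes among called genes with a mean of at least 1 CPM. *Ptger4*, the prostaglandin E receptor EP4 (GRCm39 chr15:5236142-5273673, minus strand), stood at 1.25, 0.837, 2.17 and 1.21 CPM in mutants, against 10.3, 14.5, 5.50 and 3.58 CPM in wild types. All mutants were lower than all wild types, and wild types 5 and 9 were higher than wild types 19 and 22. Its log2 fold change was -2.48 (SE 0.41, adjusted p = 0.0321), and of 19 tested genes of prostaglandin synthesis, reception and clearance it was the 1 called (5.26%, against 1.02% of all genes). *Camk1g* (chr1:193028652-193052689, minus strand), a calcium/calmodulin-dependent kinase, stood at 0.467, 0.372, 0.807 and 0.562 CPM in mutants, against 2.13, 1.80, 2.10 and 2.20 CPM in wild types (-1.90, SE 0.23, adjusted p = 0.0116). It was the 1 called of 20 genes of its list (5%), whose median was -0.01. *Slit1*, a secreted cue that repels axons through Robo receptors, stood at 3.48, 5.91, 5.45 and 6.22 CPM in mutants, against 10.3, 10.8, 10.7 and 10.9 CPM in wild types (-1.01, SE 0.15, adjusted p = 0.0305). The 4 wild types were close to each other, and each mutant lay well below them. *Teddm2*, a gene of unclear function, rose (2.16 ± 0.33 CPM in mutants, against 0.909 ± 0.16 CPM in wild types, 1.24, SE 0.22, adjusted p = 0.0382). *Arhgef28*, a guanine nucleotide exchange factor (4.01 ± 1.7 CPM in mutants, against 8.42 ± 2.2 CPM in wild types, -1.06, SE 0.29, adjusted p = 0.114), and *Lurap1l* (3.38 ± 1.3 CPM in mutants, against 1.66 ± 0.47 CPM in wild types, 1.003, SE 0.26, adjusted p = 0.101) did not pass in either edgeR fit, and the groups did not overlap for either gene. DESeq2 with the set as a term called both (adjusted p = 0.00616 for *Arhgef28* and 0.0294 for *Lurap1l*). These 6 genes are named by the study for the same samples, so they are not independent evidence.

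*Slit1* was 1 of 4 axon guidance genes that fell among 61 tested. *Sema4a*, a transmembrane semaphorin, stood at 117 ± 5.9 CPM in mutants, against 162 ± 9.8 CPM in wild types (-0.46, SE 0.06, adjusted p = 0.0116), *Sema6d* at 436 ± 9.0 CPM in mutants, against 532 ± 27 CPM in wild types (-0.28, SE 0.05), and the repulsive guidance molecule gene *Rgma* at 254 ± 24 CPM in mutants, against 337 ± 6.9 CPM in wild types (-0.40, SE 0.08). *Robo1*, a receptor of Slit proteins, rose (64.3 ± 8.1 CPM in mutants, against 51.6 ± 11.3 CPM in wild types, 0.34, SE 0.06, adjusted p = 0.0385). The median of the list was -0.11, and 8.2% of it was called, against 1.02% of all genes. Among adhesion molecules named after their values were seen, the adhesion G protein-coupled receptor genes *Adgrg1* (866 ± 72 CPM in mutants, against 1144 ± 38 CPM in wild types, -0.39), *Adgrl1* (178 ± 11 CPM in mutants, against 230 ± 22 CPM in wild types, -0.36) and *Celsr2* (-0.44) fell, as did the protocadherin gene *Pcdh19* (-0.53) and the laminin receptor subunit gene *Itga7* (152 ± 2.7 CPM in mutants, against 189 ± 15 CPM in wild types, -0.30). Of proteoglycan genes, also named after their values were seen, *Ncan*, the chondroitin sulphate proteoglycan neurocan, stood at 1901 ± 376 CPM in mutants, against 2518 ± 260 CPM in wild types (-0.41, SE 0.07, adjusted p = 0.0309), and *Gpc1* and *Gpc4*, heparan sulphate glypicans, fell as well (-0.45 and -0.34), while *Vcan*, the core of versican, stood at 150 ± 18.9 CPM in mutants, against 137 ± 10.7 CPM in wild types (0.14) and did not pass. *Gpc4*, which astrocytes secrete to recruit glutamate receptors, was the 1 called of 27 synaptogenic and synapse-engulfing genes (3.7% of the list, median -0.07).

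Of 72 genes of the actin filament machinery 0 passed in edgeR with the set as a term, with 16 at an unadjusted p under 0.05, and DESeq2 called 5 and limma-voom 0. Over all genes 1.02% passed, so that a count of 0 here is near the background, and 2766 of 15850 had an unadjusted p under 0.05 in that fit. The median was 0.02, and the smallest adjusted p was that of *Arpc5*, a subunit of the Arp2/3 complex (0.24, SE 0.06, adjusted p = 0.0791). The log2 fold changes of the list lay between -0.35 and 0.27. Of 42 microtubule and intermediate filament genes, *Plec*, the linker plectin, was the 1 that passed (2.38% of the list) and fell (45.2 ± 7.1 CPM in mutants, against 63.0 ± 13 CPM in wild types, -0.46, SE 0.07). *Gfap*, the intermediate filament of reactive astrocytes, stood at 1882, 1328, 1461 and 1902 CPM in mutants, against 996, 840, 1009 and 1251 CPM in wild types (0.70, SE 0.14). Its groups did not overlap, its adjusted p of 0.0501 missed the threshold, and DESeq2 called it on genotype alone (adjusted p = 0.0098). *Osmr*, the oncostatin M receptor, was the 1 of 33 reactive astrocyte genes that rose (71.9 ± 9.0 CPM in mutants, against 51.3 ± 2.9 CPM in wild types, 0.49, SE 0.09, adjusted p = 0.0355). It made up 3.03% of the list, whose median was 0.05. Among 25 genes of the endfoot membrane and dystroglycan complex 0 passed, with 4 at an unadjusted p under 0.05, 2 called by DESeq2 and 1 by limma-voom. The water channel gene *Aqp4* stood at 2204 ± 125 CPM in mutants, against 2332 ± 306 CPM in wild types (-0.06, SE 0.08), and its direction turned (0.04) when the set without Y-linked transcripts was fitted by itself. The gap junction gene *Gja1* stood at 2374, 2181, 2198 and 1972 CPM in mutants, against 3060, 2840, 2495 and 2395 CPM in wild types (-0.29, SE 0.07, adjusted p = 0.0834), and *Dag1*, the dystroglycan gene, at 801 ± 38 CPM in mutants, against 979 ± 88 CPM in wild types (-0.28, SE 0.06, adjusted p = 0.0778). Neither group pair overlapped, and neither gene passed in edgeR. DESeq2 with the set as a term called both (adjusted p = 0.0012 for *Gja1* and 0.00134 for *Dag1*), and limma-voom called *Dag1* (adjusted p = 0.0417).

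Of 24 tested genes of cholesterol synthesis 6 fell and 0 rose. Astrocytes make sterol through a pathway that runs from acetyl-CoA over squalene to cholesterol, under the transcription factor SREBP2. With the set as a term, all 24 had negative log2 fold changes (median -0.25, against 0.01 with 47.9% negative over all genes), those of *Acat2* and *Ebp* being close to 0. The 6 that fell made up 25% of the list, against 0.662% fallen over all genes. *Srebf2*, the gene of SREBP2, stood at 329, 317, 314 and 339 CPM in mutants, against 409, 394, 409 and 420 CPM in wild types (-0.32, SE 0.06, adjusted p = 0.036). Each mutant lay below each wild type, and the same held for the other 3 genes described next. The squalene epoxidase gene *Sqle* stood at 337 ± 32 CPM in mutants, against 433 ± 39 CPM in wild types (-0.35, SE 0.06), and *Dhcr7*, a reductase at the end of the pathway, at 183 ± 27 CPM in mutants, against 244 ± 6.9 CPM in wild types (-0.41, SE 0.08). The sterol carrier gene *Stard4* stood at 55.0 ± 6.6 CPM in mutants, against 70.6 ± 1.3 CPM in wild types (-0.36, SE 0.06). The medians were -0.33 within the set with Y-linked transcripts and -0.16 within the other, and -0.21 without wild type 5 and -0.26 without wild type 9.

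**Figure D3:**
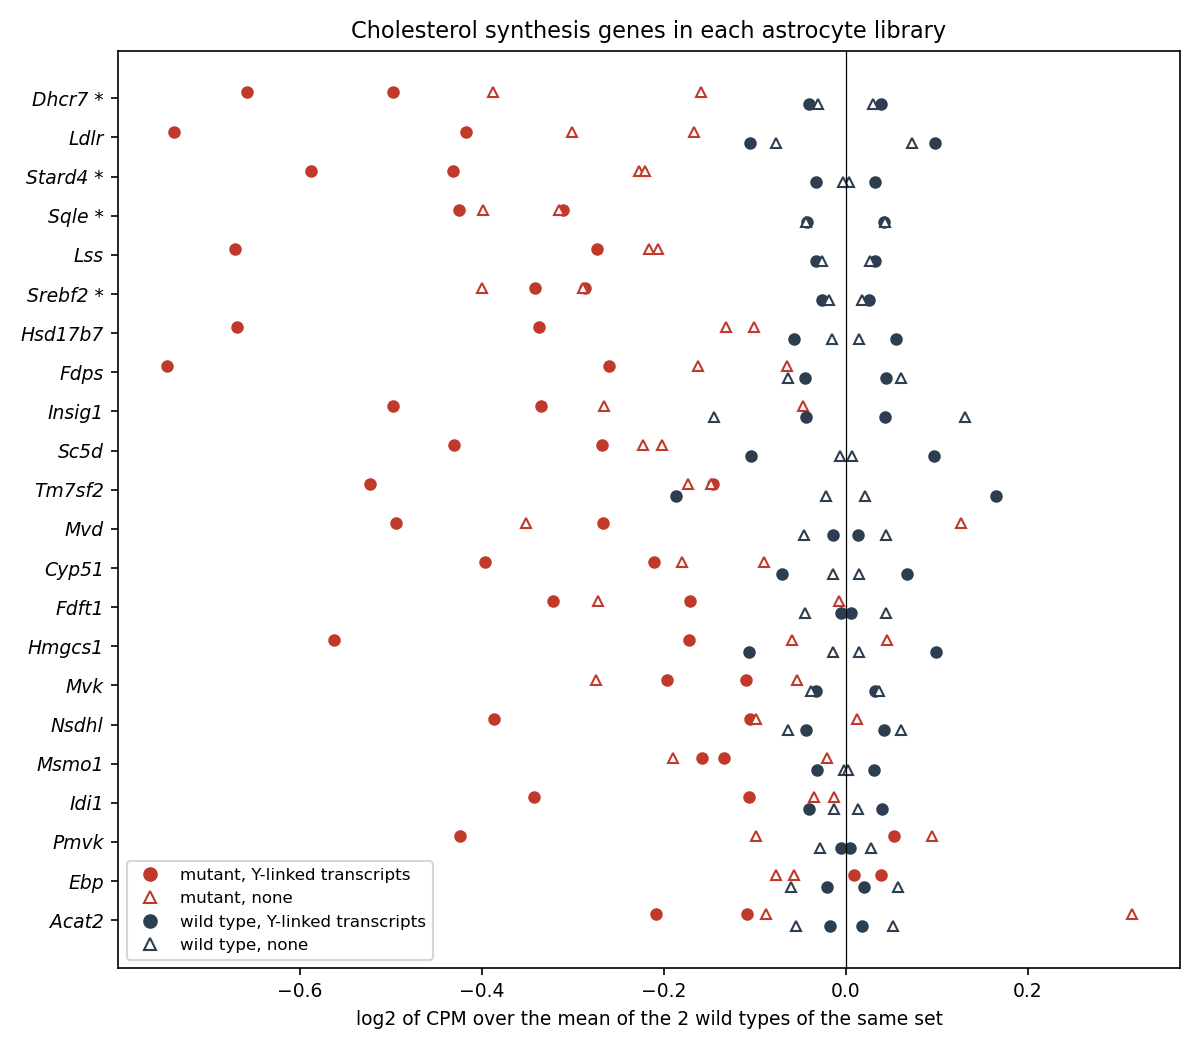
Each astrocyte library's CPM of 22 of the 24 cholesterol synthesis genes as log2 of the ratio to the mean of the 2 wild types of the same set (horizontal axis; wild types therefore centre on 0), in red for mutants and dark for wild types, circles with and triangles without Y-linked transcripts. Stars mark 4 of the genes that fell; all 4 mutants lie left of all wild types for each of them, while those of *Acat2* and *Ebp* lie on both sides of 0.

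Because genes of this pathway share promoter elements, the promoters of 2 of the 6 genes that fell are shown, as the 250 bases before the start of the canonical GENCODE transcript on GRCm39, which need not be the outermost start of the gene. Capitals mark TCACCCCA, the core of the sterol regulatory element bound by SREBP proteins, and ATTGG, the inverted CCAAT box bound by NF-Y, each searched on both strands. *Srebf2* lies at chr15:82031132-82031381 (plus) and *Sqle* at chr15:59186632-59186881 (plus).
Srebf2 promoter: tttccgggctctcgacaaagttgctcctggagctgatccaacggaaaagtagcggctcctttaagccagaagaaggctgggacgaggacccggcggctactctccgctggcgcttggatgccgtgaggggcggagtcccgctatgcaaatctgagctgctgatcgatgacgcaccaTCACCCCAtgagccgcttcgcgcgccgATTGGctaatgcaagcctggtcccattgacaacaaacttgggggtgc
Sqle promoter: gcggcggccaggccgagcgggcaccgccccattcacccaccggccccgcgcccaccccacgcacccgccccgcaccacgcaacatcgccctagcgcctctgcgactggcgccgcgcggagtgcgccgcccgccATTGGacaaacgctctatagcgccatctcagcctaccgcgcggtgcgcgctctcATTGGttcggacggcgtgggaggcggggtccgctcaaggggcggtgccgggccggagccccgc
TCACCCCA was present in 2 of the 24 promoters of the list (8.33%), those of *Srebf2* and *Hmgcs1*, and in 1.2% of the promoters of 13720 tested protein-coding genes. ATTGG was present in 18 of the 24 (75%), against 36% of all, and in 5 of 14 promoters of hedgehog pathway genes (35.7%). These letters describe the windows, and no binding was measured.

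Fatty acid and lipid handling genes were among the calls too, and are named here after their values were seen. *Scd1*, the stearoyl-CoA desaturase, fell to 255, 242, 270 and 280 CPM in mutants, against 367, 334, 380 and 364 CPM in wild types (-0.46, SE 0.06, adjusted p = 0.0116). *Fasn*, fatty acid synthase, fell to 548 ± 55 CPM in mutants, against 755 ± 102 CPM in wild types (-0.45, SE 0.07), and *Acaca*, the carboxylase that feeds it, to 86.1 ± 5.8 CPM in mutants, against 110 ± 4.9 CPM in wild types (-0.34, SE 0.06). For all 3 genes the groups did not overlap. The lipoprotein receptor genes *Lrp1* (-0.38) and *Scarb1* (-0.42) fell, while *Abca5*, a lipid transporter of the ABC family, and *Sgms1*, a sphingomyelin synthase, rose (0.49 and 0.28). Of genes that build sphingolipids and gangliosides, the ceramide synthase gene *Cers4* fell to 18.2 ± 2.3 CPM in mutants, against 27.7 ± 1.2 CPM in wild types (-0.60, SE 0.07, adjusted p = 0.0116), and the sialyltransferase genes *St8sia1* (-0.66), *St6galnac5* (195 ± 27 CPM in mutants, against 284 ± 9.2 CPM in wild types, -0.54) and *St6galnac6* (-0.32) fell. *Man2b2*, a lysosomal alpha-mannosidase, stood at 59.6 ± 3.0 CPM in mutants, against 79.8 ± 1.2 CPM in wild types (-0.41, SE 0.05, adjusted p = 0.00887), and *Arsa*, arylsulphatase A, and *Clcn6*, a late endosomal chloride transporter, fell by 0.35 and 0.31 on the log2 scale. These were the 3 called of 44 lysosomal and glycoprotein turnover genes (6.82%, against 1.02% of all genes), whose median was -0.07.

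The hedgehog and Wnt pathways, by which neurons and vessels and astrocytes instruct one another, held 3 calls among the lists. Sonic hedgehog acts through PTCH1 and SMO on GLI transcription factors, and *Gli1* and *Hhip* are targets of the pathway, *Hhip* encoding a protein that binds and holds back the ligand. *Hhip* fell to 5.82, 5.54, 6.21 and 6.74 CPM in mutants, against 16.8, 16.8, 10.9 and 9.30 CPM in wild types (-1.10, SE 0.17, adjusted p = 0.0305). *Gli1* fell to 15.3, 12.8, 15.0 and 14.7 CPM in mutants, against 27.6, 32.1, 21.3 and 19.6 CPM in wild types (-0.77, SE 0.13, adjusted p = 0.0321). The 4 mutants were close to each other in both genes, and the wild types with Y-linked transcripts were higher than those without. The other 12 genes tested did not pass, and the 2 called made up 14.3% of the list, against 1.02% of all genes. *Ptch1*, a further target, stood at 233 ± 34 CPM in mutants, against 301 ± 57 CPM in wild types (-0.34, SE 0.09, adjusted p = 0.109), *Gli2* at 49.4 ± 6.3 CPM in mutants, against 64.5 ± 16 CPM in wild types (-0.36, adjusted p = 0.08), and *Smo* at 121 ± 4.5 CPM in mutants, against 123 ± 6.9 CPM in wild types (-0.01). The list's median was -0.14 with 13 of 14 negative, and -0.07 with 10 negative with the length and GC offset. *Wnt7b*, a ligand by which neural cells act on brain endothelium, fell to 115, 98.6, 114 and 101 CPM in mutants, against 143, 138, 136 and 135 CPM in wild types (-0.35, SE 0.07, adjusted p = 0.0421). It was the 1 called of 28 astroglial vascular signals (3.57% of the list, median 0.11), among which *Wnt7a* stood at 95.1 ± 19 CPM in mutants, against 119 ± 6.8 CPM in wild types (-0.33, SE 0.11, adjusted p = 0.176) and *Fgf2* at 26.1 ± 4.8 CPM in mutants, against 20.01 ± 1.39 CPM in wild types (0.38, SE 0.10, adjusted p = 0.0996). Of Wnt receptors and their regulators, the frizzled gene *Fzd1* (-0.42) and *Znrf3*, a ubiquitin ligase that removes frizzled proteins (-0.29), fell; both were named after their values were seen, as was *Egfr*, the epidermal growth factor receptor (227 ± 5.9 CPM in mutants, against 294 ± 22 CPM in wild types, -0.36, SE 0.05, adjusted p = 0.0272).

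Of 27 tested targets of p53, the stress-activated transcription factor, 2 rose and 0 fell. These 2 made up 7.41% of the list, against 1.02% of all genes. *Cdkn1a*, the cell cycle inhibitor p21, rose to 9.55, 15.1, 12.6 and 11.1 CPM in mutants, against 5.59, 6.60, 6.86 and 5.62 CPM in wild types (0.98, SE 0.15, adjusted p = 0.0305). *Ccng1*, cyclin G1, rose to 79.3, 91.1, 78.5 and 78.9 CPM in mutants, against 62.9, 63.8, 61.1 and 54.5 CPM in wild types (0.45, SE 0.05, adjusted p = 0.0116). Neither pair of groups overlapped. *Eda2r*, a tumour necrosis factor receptor family member on the X chromosome, stood at 4.26 ± 1.1 CPM in mutants, against 2.15 ± 0.27 CPM in wild types (0.99, SE 0.21, adjusted p = 0.0662). Of the 27 values 19 were positive (median 0.16), and the groups did not overlap in 6 that were higher and 1 that was lower, against 2.19% and 2.78% of all genes. Of 33 cell cycle genes, *Cdkn1a* rose and *Ccnd1* fell (37.5, 39.4, 64.3 and 59.6 CPM in mutants, against 51.4, 47.3, 76.9 and 74.3 CPM in wild types, -0.31, SE 0.05, adjusted p = 0.0321), and the median was -0.03. These 2 made up 6.06% of the list.

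Motile cilia are the beating appendages of ependymal cells. Of 44 axoneme genes tested 42 had negative values and 6 fell (13.6% of the list), with a median of -0.45, against 47.9% negative and 0.662% fallen over all genes. *Dnah3*, an axonemal dynein heavy chain, stood at 13.7, 15.3, 5.45 and 4.54 CPM in mutants, against 24.9, 32.0, 12.3 and 8.02 CPM in wild types (-0.98, SE 0.14, adjusted p = 0.0259), and *Ankrd45* at 12.25, 13.72, 12.01 and 11.97 CPM in mutants, against 21.92, 20.04, 19.97 and 18.29 CPM in wild types (-0.67, SE 0.08, adjusted p = 0.00969). *Dnah7c* (-0.94), *Dnah9* (-0.68), *Hydin* (-0.68) and *Odad1* (-0.45) fell as well. In ECs of the same animals, fitted on genotype alone, none of these 6 passed. Their log2 fold changes there were -0.19 for *Dnah3*, -0.38 for *Ankrd45*, 0.02 for *Dnah7c*, -0.86 for *Dnah9*, -0.73 for *Hydin* and -0.18 for *Odad1*. Other members of the list lay on both sides of 0 in ECs, such as *Drc7* (-1.41), *Dnah11* (-1.23), *Foxj1* (-1.16) and *Dnai2* (0.17). No gene of the list passed the test of the difference between cell types, so the ciliary result was not shown to be particular to astrocytes. In astrocytes the groups overlapped for *Dnah3*, *Dnah7c*, *Dnah9* and *Hydin* and not for *Ankrd45* and *Odad1*. *Dnah7c* has the paralogs *Dnah7a* and *Dnah7b*, and whether the counting split reads between them was not tested. Markers of ependyma share at least *Foxj1* with the cilia list, so the 2 lists are not separate. All 5 markers had negative values (median -0.41). Of these 0 passed, with 5 at an unadjusted p under 0.05, 1 called by DESeq2 and 0 by limma-voom. Their summed level was 180, 178, 172 and 137 CPM in mutants, against 224, 262, 245 and 158 CPM in wild types. In EC libraries it was 15.45 ± 0.46 CPM in mutants, against 21.28 ± 8.89 CPM in wild types. *Foxj1*, the master regulator of motile cilia, stood at 69.2 ± 8.9 CPM in mutants, against 89.4 ± 19 CPM in wild types. The part of ependymal cells in the ciliary result was not tested. The 4 choroid plexus markers, which are higher in wild type 5, had a median of -1.32 with that animal and 0.03 without it. The median of the cilia list was -0.45 with all animals, -0.52 without wild type 5 and -0.39 without wild type 9. Wild type 9 held the highest summed level of that list (1539 CPM, against 1255 CPM in wild type 5). The part of choroid plexus cells was not tested either.

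Of 36 tested genes of astrocyte identity, *Hopx* rose (130 ± 10 CPM in mutants, against 96.9 ± 8.7 CPM in wild types, 0.44, SE 0.09, adjusted p = 0.046) and *Tril*, an accessory of Toll-like receptors in glia, fell (536 ± 37 CPM in mutants, against 733 ± 35 CPM in wild types, -0.44, SE 0.06, adjusted p = 0.0234), and the median was -0.03. Called genes made up 5.56% of the list, against 1.02% of all genes. *Nfix*, a transcription factor of astrocyte differentiation, stood at 170 ± 7.0 CPM in mutants, against 203 ± 5.7 CPM in wild types (-0.25, SE 0.05, adjusted p = 0.0623), with groups that did not overlap. *Sall3*, a zinc finger transcription factor, fell to 73.4, 89.4, 74.3 and 74.0 CPM in mutants, against 123, 120, 108 and 104 CPM in wild types (-0.54, SE 0.06, adjusted p = 0.00674). *Hr*, a nuclear corepressor of thyroid hormone signalling and itself a thyroid hormone target in brain, fell to 11.8, 7.86, 11.1 and 8.60 CPM in mutants, against 32.1, 47.0, 19.5 and 16.9 CPM in wild types (-1.45, SE 0.24, adjusted p = 0.0309). *P4ha3*, a collagen prolyl hydroxylase subunit, fell to 26.9 ± 6.8 CPM in mutants, against 45.7 ± 7.9 CPM in wild types (-0.77, SE 0.08, adjusted p = 0.00674), and *Ndrg4* to 82.0 ± 10 CPM in mutants, against 113 ± 16 CPM in wild types (-0.45, SE 0.05, adjusted p = 0.00674). Among 14 neuropeptide precursor genes 0 passed, with 4 at an unadjusted p under 0.05, 2 called by DESeq2 and 0 by limma-voom. *Pdyn*, prodynorphin, stood at 0.675, 1.53, 1.67 and 2.90 CPM in mutants, against 5.48, 3.71, 7.54 and 3.58 CPM in wild types (-1.61, SE 0.33, adjusted p = 0.056) with groups that did not overlap. Of 28 immediate early and dissociation stress genes 0 passed, with 0 at an unadjusted p under 0.05 and 0 in DESeq2 and limma-voom. Their median of -0.13 was 0.04 without wild type 9.

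Of the genes that rose by the largest amounts beside *Esr1*, *Rerg*, a Ras-like growth inhibitor first described as oestrogen-regulated in human breast tissue, rose to 2.65, 4.98, 1.97 and 3.72 CPM in mutants, against 1.17, 0.521, 1.36 and 0.766 CPM in wild types (1.80, SE 0.36, adjusted p = 0.0477). *Zfp868*, a zinc finger gene of chromosome 8, rose to 29.0, 33.4, 24.8 and 22.9 CPM in mutants, against 20.96, 12.98, 9.98 and 11.03 CPM in wild types (1.03, SE 0.14, adjusted p = 0.0148). In ECs of the same animals *Zfp868* stood at 47.8 ± 12.4 CPM in mutants, against 24.8 ± 7.58 CPM in wild types (0.94, not called), a difference between cell types of 0.06. *Smarca1*, an ISWI chromatin remodeller (16.4 ± 2.2 CPM in mutants, against 9.79 ± 2.0 CPM in wild types, 0.76), and the nucleosome-binding genes *Hmgn3* (112 ± 9.9 CPM in mutants, against 86.7 ± 4.7 CPM in wild types, 0.38) and *Hmgn5* (0.34) also rose, the *Hmgn* genes and *Pfkl* being named after their values were seen. *Pfkl*, the liver-type phosphofructokinase of glycolysis, rose to 141 ± 12 CPM in mutants, against 109 ± 3.0 CPM in wild types (0.38, SE 0.06, adjusted p = 0.0321). The long non-coding RNA genes *9630001P10Rik* (0.90), *Gm45650* (1.502) and *Gm49708* (0.83) rose, and the low-level genes *Slc2a6* (-1.28), *Mylk2* (-1.27), *Arl5c* (-1.11), *Popdc1* (-1.09) and *Ky* (-1.07) fell. The groups overlapped for *Slc2a6*, *Mylk2* and *Ky* and not for *Arl5c* and *Popdc1*.

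**Figure D4:**
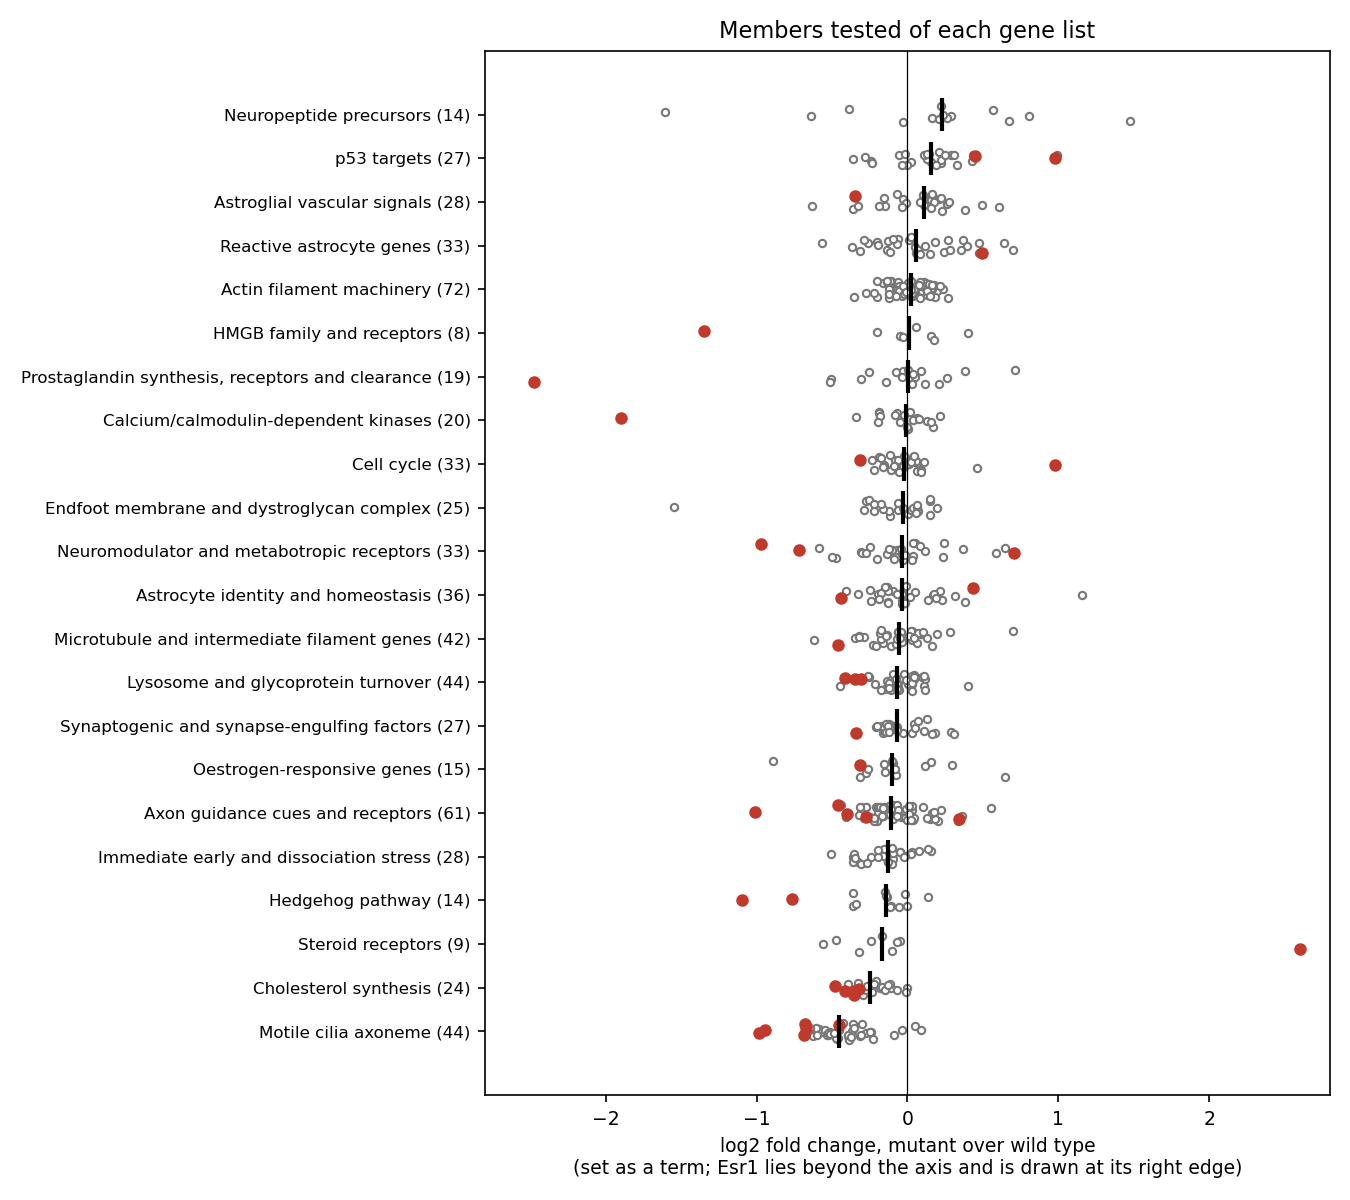
Log2 fold change of mutant over wild-type astrocytes with the set as a term (horizontal axis) for the tested members of 22 gene lists (rows, number tested in brackets); red points passed, open points did not, and black bars are medians. The cholesterol synthesis and motile cilia rows lie left of 0 almost as a whole, and the actin row centres on 0.

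Of the properties of the 161 called genes given here, exonic length and GC content did not enter the test. Exonic length had a median of 7622 bases among genes that fell, 5846.5 among genes that rose and 5955 over all tested genes, and GC content medians of 52.7%, 45.3% and 49.1%. The next values share the wild-type astrocyte levels with the test, or are the tested values themselves, and are a description. In wild types 75.2% of the genes that fell were more than 2-fold higher in astrocytes than in ECs, against 42.9% of those that rose and 30.3% of all genes. The median change was 0.40 for genes that rose and -0.45 for genes that fell, and 20 of the 161 lay beyond 1 on the log2 scale. Groups did not overlap in CPM for 36 of 56 genes that rose and 72 of 105 that fell, against 4.97% of all genes. With an offset for exonic length and GC content, chosen after the data were seen, 80 genes passed, of which 76 were among the 161. By chromosome, the called share was 2.28% on X (12 of 527 genes), 1.81% on chromosome 15 (11 of 607) and 1.67% on chromosome 8 (14 of 836), against 1.02% of all genes, and 1 of 9 genes on Y was called.

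**Figure D5:**
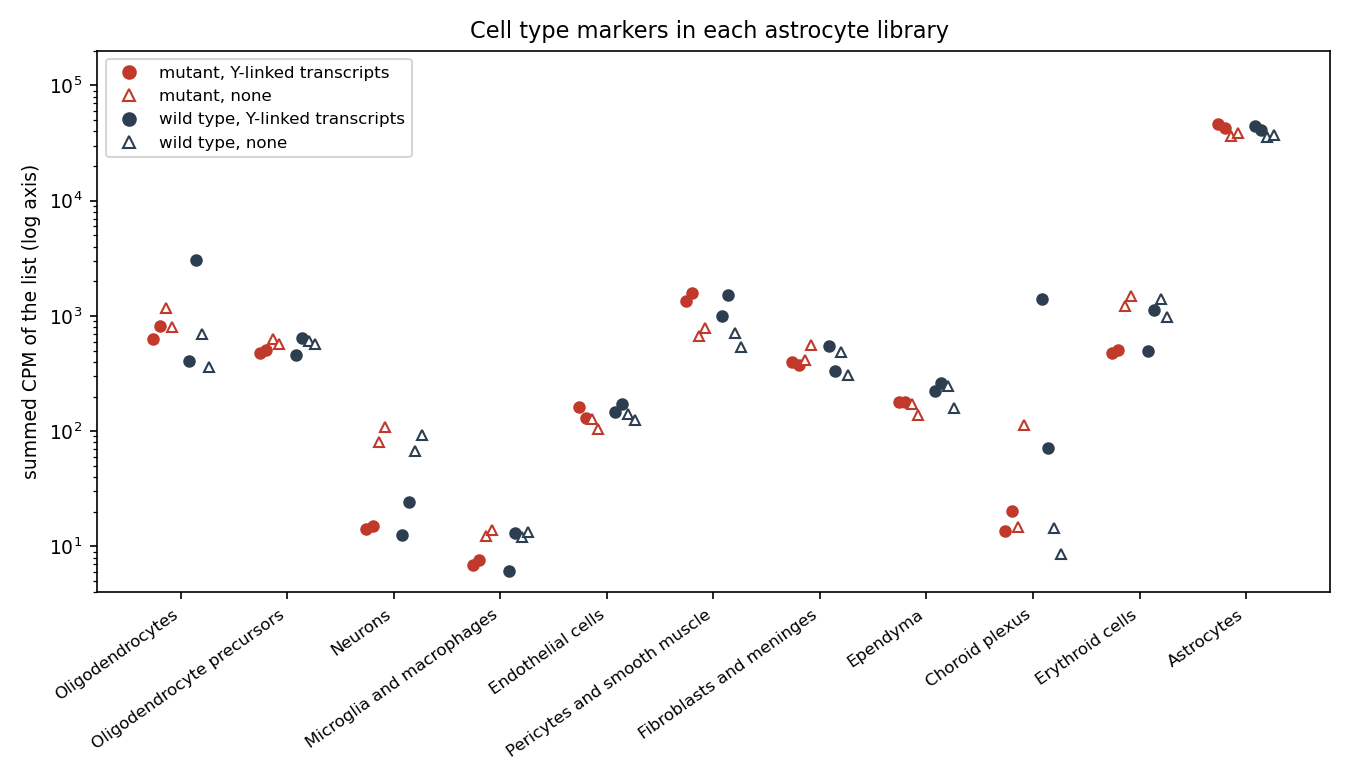
Summed CPM (vertical log axis) of 11 lists of cell type markers in each astrocyte library, red for mutants and dark for wild types, circles with and triangles without Y-linked transcripts. Wild type 5 stands out for choroid plexus and wild type 9 for oligodendrocyte markers; neuronal markers are higher in triangles than in circles, and astrocyte markers exceed the others in all libraries.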

How the data were processed

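RNA was sequenced from astrocytes and ECs of 8 P14 animals, 16 libraries in all. The deposited table holds raw counts per gene, which the authors made from reads aligned with STAR 2.7.9a to GRCm39. The labels name a TruSeq stranded kit and the study's methods a NEBNext directional kit. The annotation release and strand setting of the counting are not given in the sources used here.

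Counts were analysed in R 4.3.3 with edgeR 4.0.16 (TMM factors, filterByExpr, quasi-likelihood test, Benjamini-Hochberg adjustment, threshold 0.05), and with DESeq2 1.42.0 and limma-voom 3.58.1 as alternatives. Sets were assigned from Y-linked transcripts (1 CPM or more). Within a cell type libraries are separate animals, so p-values of the astrocyte fits measure the spread between animals. The main test of the difference between cell types took the 16 libraries as independent, though each animal gave 1 astrocyte and 1 EC library. With the animal as a block that test gave 2 calls as well. Exonic length, GC content and promoters came from GENCODE on GRCm39.

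The gene lists and the genes followed were chosen with earlier results of these data known. Genes named by rule were *Hmgb1*, genes called on genotype alone, the 10 largest changes in each direction and the 10 smallest p among genes called with the set as a term and a mean of at least 1 CPM, *Gja1*, *Aqp4* and *Aldh1l1*, the 6 genes named by the study, and from every list as many as 3 with the smallest p; others are marked as chosen after their values were seen. Alternatives changed the normalization, filter, tool, covariate and libraries. The counts of the 8 animals' 2 cell types had a within-animal correlation of 0.109 in the fit with the animal as a block. Some listed genes and 2 of the lists are not reported here.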

Additional observations from a re-analysis of the deposited data

Results flagged for a closer look

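In groups of 4 libraries, 1 library stood apart from the other 3 in 13 of 202 groups looked at by Dixon's criterion, which chance alone meets in about 1 in 20. Mutant 13 was highest among mutants for *Ankrd45* (13.7 CPM), *Ccng1* (91.1 CPM), *Pdlim5* (188 CPM) and *Sall3* (89.4 CPM). Mutant 21 was lowest for *Clcn6* (127 CPM) and *Sema4a* (108 CPM), and mutant 2 for *Ccnd3* (34.5 CPM). Among wild types, animal 5 was highest for *Esr1* (0.266 CPM), animal 9 for *Greb1* (8.4 CPM), and animal 22 lowest for *Nfix* (194 CPM). Summed oligodendrocyte markers reached 3034 CPM in wild type 9. Summed choroid plexus markers reached 114 CPM in mutant 21 and 1411 CPM in wild type 5.

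The genotype effect in astrocytes differed from that in ECs of the same animals for *Esr1* (5.85 on the log2 scale) and *Hmgb1* (-1.32), by edgeR's quasi-likelihood test of the difference.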

How the results depend on the processing

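On genotype alone the 1 call became 97 with DESeq2, 3 with no filter on low counts, 2 with limma-voom, 192 with the *Xist* level as a covariate, 0 and 7 within the sets with and without Y-linked transcripts, and 6 with all 16 libraries in 1 fit. With the set as a term the 161 calls became 590 with DESeq2, 1069 with no filter on low counts, 80 with the length and GC offset (chosen after seeing the data), 63 with all 16 libraries, 20 beyond a log2 fold change of 1, and 3 to 81 without 1 animal. With the animal as a replicate block over both cell types the calls were 4 on genotype alone and 208 with the set, and 2 for the difference between cell types. That difference had 8 calls with DESeq2 and 1 to 3 without 1 animal. *Hmgb1*, with an adjusted p of 0.0605 on genotype alone, passed with DESeq2 (-1.36), no filter (-1.33), limma-voom (-1.35), *Xist* (-1.32), within the set without Y-linked transcripts (-1.42), with all 16 libraries (-1.37), with the replicate block (-1.36) and with the set as a term (-1.35); over 19 alternatives its adjusted p ranged from 2.19e-12 to 0.345, and without 1 animal its value was -1.46 to -1.27. The sign of *Aldh1l1* turned on genotype alone without mutant 18 (-0.04), wild type 5 (-0.04) or wild type 9 (-0.06) and within the set without Y-linked transcripts (-0.06), and with the set as a term without mutant 2 (-0.01); without 1 animal its values were -0.06 to 0.16 and, with the set, -0.01 to 0.12. That of *Aqp4* turned on genotype alone without wild type 5 (0.01) and within that set (0.04), with -0.14 to 0.01 without 1 animal. The causes were not tested. No paired analysis of genotype was possible because mutants and wild types share no animal numbers. With 4 animals per genotype, exact tests of single genes cannot go below 0.0286.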

Other observations

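The processed pseudogene *Gm7639*, on chromosome 8 and chosen after its values were seen, had 9, 8, 5 and 11 reads in mutant astrocytes and 0 in each wild type, at least 7.4-fold higher in mutants by the exact 95% lower bound, which covers counting error only, and 9.63-fold with the wild types set at a floor of 3 counts over the group. In ECs of the same animals it had 2, 5, 1 and 6 reads in mutants and 0 in each wild type, at least 3.27-fold higher by that bound and 4.6-fold at that floor. A window of chromosome 8 between 57 and 73 Mb on GRCm39 was drawn after genes in it had been seen to differ. Of 134 genes tested there, 4 were called, against 1.02% of all genes, and 13 had groups that did not overlap (9.7%), 8 higher and 5 lower in mutants, against 4.97% of all genes.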
